A study of Homo sapiens with 9 samples.

Results

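The comparison described here sets both knockdowns together, MELK siRNA and UBE2C siRNA, against control siRNA in PC3, an established cell line from a human prostate cancer whose growth does not need androgen. It uses 8 of the 9 arrays: MELK siRNA replicates 1, 2 and 3, UBE2C siRNA replicates 2 and 3, and control siRNA replicates 1, 2 and 3. UBE2C siRNA replicate 1 was left out because its signals departed from those of the 8 others, and the results depend on leaving it out, as given below. The cells were transfected with 50 nM siRNA, and total RNA was hybridized to Illumina bead arrays 48 h later. The MELK and UBE2C siRNAs were ON-Target pools from Thermo Scientific, and the control was the All Stars negative control siRNA from Qiagen, all delivered with the same HiPerfect reagent. A change shared by both knockdowns and an effect of the siRNA product or its handling therefore cannot be told apart in this design. No untransfected or mock-transfected array was analysed here. The labels give triplicates but do not say that these were separate cultures, so every p-value below reflects the spread among these samples, and that spread may be technical only.

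Small interfering RNAs are loaded into an Argonaute protein and direct the cleavage of matching transcripts, and they can also lower transcripts that match only over the short seed. MELK is a serine/threonine kinase whose transcript is abundant in dividing cells. UBE2C is the ubiquitin-conjugating enzyme that hands ubiquitin to substrates of the anaphase-promoting complex, which drives the exit from mitosis. Both genes belong to the set that tumour cells raise with proliferation.

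Levels below are background-corrected, quantile-normalized log2 signals of 1 probe per gene, and differences are on the same log2 scale. Because probes bind with different strength, levels are compared only between arrays for the same gene. A gene was called when limma's adjusted p, taken over all 11428 genes tested, was under 0.05. The 8 arrays had 18204 to 18661 probes above background, and UBE2C siRNA replicate 1 had 16559. A two-sided exact permutation test of 5 knockdown against 3 control arrays gave p = 0.393 for the number of probes above background and p = 0.75 for the median signal before scaling, where 0.0357 is the smallest p possible. All 8 epithelial and PC3 markers, among them KRT8, EPCAM and VIM, were detected on all 8 arrays. Of the luminal markers KLK2 and KLK3 were detected on none and TMPRSS2 on all 8. Of the 14 fibroblast, endothelial and blood markers with a probe, PECAM1 was detected on all 8 arrays and 8 were detected on none.

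Each siRNA lowered its own target, and these were the transcripts that set the knockdowns apart. MELK had log2 signals of 9.44, 9.36 and 9.32 on the MELK siRNA arrays and 10.30 and 10.24 on the UBE2C siRNA arrays, against 10.51, 10.38 and 10.50 on the control arrays. UBE2C had log2 signals of 12.86, 12.83 and 12.85 on the MELK siRNA arrays and 11.53 and 11.66 on the UBE2C siRNA arrays, against 12.97, 12.89 and 12.85 on the control arrays. MELK siRNA thus left 47.1% of the control signal of MELK (log2 difference -1.09, adjusted p = 7.82e-06), and UBE2C siRNA left 40.4% of that of UBE2C (log2 difference -1.31, adjusted p = 4.15e-08). The UBE2C value is that of its bright probe: a second, dim probe gave -0.11 (SE 0.27) in the pooled contrast, and averaging both gave -0.72 under UBE2C siRNA (adjusted p = 0.0218). MELK was also lower on both UBE2C siRNA arrays than on every control array, by 0.19 on the log2 scale, which was not called (adjusted p = 0.274). UBE2C on the MELK siRNA arrays overlapped the control values (log2 difference -0.06, adjusted p = 0.684). In the pooled contrast the 2 targets therefore are the average of a large and a small effect, -0.64 for MELK and -0.68 for UBE2C. UBE2C siRNA replicate 1, the array left out, had a log2 signal of 11.54 for UBE2C, at the level of the other UBE2C siRNA arrays, and 10.94 for MELK, above every control array. With single values, 3 against 3 arrays cannot go below an exact p of 0.1, which MELK reached on the MELK siRNA arrays, and 2 against 3 cannot go below 0.2, which UBE2C reached on the UBE2C siRNA arrays.

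**Figure D1:**
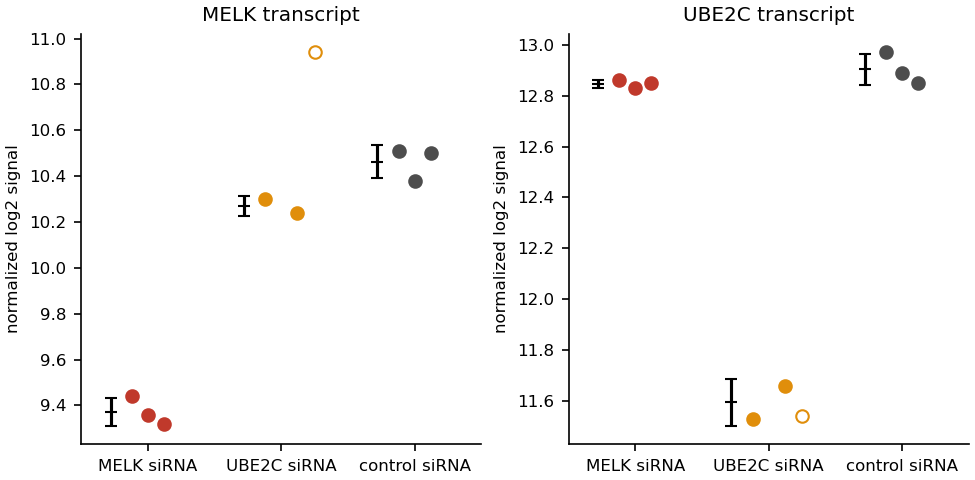
Normalized log2 signal (vertical axis) of the MELK transcript (left panel) and the UBE2C transcript (right panel) on each array of the MELK siRNA, UBE2C siRNA and control siRNA groups. Points are arrays, bars show the mean and SD of the arrays compared, and the open point is UBE2C siRNA replicate 1, which was left out. MELK sits between 9.32 and 9.44 on the MELK siRNA arrays and UBE2C at 11.53 and 11.66 on the UBE2C siRNA arrays, each below all control arrays.

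Across the detected genes the knockdown arrays shared a wide shift of small size. In the pooled contrast 1243 genes were called, 10.9% of those tested: 542 were higher (4.74%) and 701 lower (6.13%) in knockdown than in control cells. The median difference was 0.38 among the called higher genes, with quartiles of 0.31 and 0.48, and -0.42 among the called lower genes, with quartiles of -0.52 and -0.36. These medians correspond to 1.3-fold and 1.34-fold. No called gene was over 2-fold higher, and 7 were over 2-fold lower. At an unadjusted p under 0.05 there were 3069 genes, where 571 would fall by the threshold alone. The median over all genes was -0.01. Quantile normalization holds this value near 0, so a change of the total RNA cannot be seen in these signals. In these bulk RNA samples fewer cells of a kind and less RNA per cell cannot be told apart. The direction split depended on the scaling: 43.6% of called genes were higher with quantile normalization, and 58.8% of 1504 when each array was scaled to 1 median.

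The size of the called set depended on the arrays and on the model of the spread. It was 618 without MELK siRNA replicate 2, 405 without UBE2C siRNA replicate 2, 565 without UBE2C siRNA replicate 3, 772 without control siRNA replicate 1 and 580 without control siRNA replicate 2. It was 198 with a variance prior that had no trend and was not robust. With UBE2C siRNA replicate 1 added as an ordinary array it was 1, the UBE2C gene itself, and with that array added under estimated array weights it was 1557. All 1243 genes kept their direction in each fit that left out an array. Of 103 genes named by rule besides the 2 targets, 43 stayed called in every one of those 8 fits. All 103 kept their direction under every alternative in which they were tested, which was 96 of them where detection on all 8 arrays was required.

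UBE2C siRNA replicate 1 bears on every gene and list described below. With it added as an ordinary array 0 of the 103 named genes were called, and 0 members of the 24 gene lists were called in either direction. On that array 68 of the 103 named genes lay on the same side of the control mean as the other knockdown arrays, and 35 did not. Among the 35, PTGES3 had a log2 signal of 9.90 and GCH1 of 4.95, below all control arrays, and INTS1 had 10.1, above them, each against the direction of the other knockdown arrays.

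The called genes were then read on each knockdown separately. Of the 1243 called genes, 1063 (85.5%) had all 3 MELK siRNA arrays and both UBE2C siRNA arrays on the same side of all 3 control arrays, 485 of them higher and 578 lower. The calls come from the same arrays, so this count describes the called genes and is not separate support for the shift. For comparison, 2056 of all genes tested (18%) had 5 knockdown arrays that did not overlap the 3 control arrays, 1041 above (9.11%) and 1015 below (8.88%). A further 152 called genes cleared the control arrays on the UBE2C siRNA side only, 25 on the MELK siRNA side only, and 3 on neither. Tested alone, MELK siRNA gave 630 calls (5.51%; 262 higher, 2.29%, and 368 lower, 3.22%) and UBE2C siRNA gave 510 (4.46%; 192 higher, 1.68%, and 318 lower, 2.78%). These counts rest on few arrays: the MELK siRNA count was 78 without MELK siRNA replicate 2 and 185 without replicate 3, and the UBE2C siRNA count was 2 without UBE2C siRNA replicate 2 and 5 without replicate 3. The contrasts use the same control arrays, so a control array that departs moves both.

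The values of the single arrays were close to each other. The called higher genes had a median difference from the control mean of 0.34, 0.39 and 0.36 on the MELK siRNA arrays and 0.41 and 0.37 on the UBE2C siRNA arrays. The called lower genes had medians of -0.30, -0.44 and -0.46 on the MELK siRNA arrays and -0.47 and -0.43 on the UBE2C siRNA arrays. MELK siRNA replicate 1 was thus the knockdown array nearest to the controls among the lower genes, and every other knockdown array lay between -0.43 and -0.47. These medians describe the genes that the same arrays selected. The left-out UBE2C siRNA replicate 1 had a median of 0.65 over the called higher genes, with 422 of 542 above the control mean, and of -0.02 over the called lower genes, with 359 of 701 below it. Over all genes that array had a median of 0.28 and 62.8% of genes above the control mean, so its values carry a departure of their own.

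The direct test of MELK siRNA against UBE2C siRNA used no control mean, although the control arrays entered its estimate of the spread. It called 2 genes (0.0175% of those tested), 1 higher and 1 lower (0.00875% each), and these were the targets themselves: UBE2C was 1.25 higher and MELK 0.90 lower on the log2 scale in MELK siRNA than in UBE2C siRNA arrays. At an unadjusted p under 0.05 there were 581 genes, where 571 would fall by the threshold alone. Among the 1241 other called genes of the pooled contrast the MELK minus UBE2C difference had a median size of 0.09, and the 95% interval of the difference a median half-width of 0.26. The largest was 0.76, for SNORD46, whose increase was the greater with UBE2C siRNA. A missing call does not show that the knockdowns act alike: with 3 against 2 arrays even the 0.76 of SNORD46 was not called (adjusted p = 0.937).

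Small nucleolar RNAs led the genes that rose. These RNAs guide chemical modification or cleavage of ribosomal RNA precursors. SNORD3D, a copy of the U3 RNA that is needed to cut the ribosomal precursor, had log2 signals of 9.34, 9.52 and 9.44 with MELK siRNA and 9.57 and 9.62 with UBE2C siRNA, against 8.83, 8.58 and 8.50 in controls. All 5 knockdown arrays lay above all 3 control arrays, and the pooled difference was 0.87 (SE 0.1, adjusted p = 0.000365). SNORD3C, another U3 copy, rose by 0.96 (adjusted p = 0.00124), but U3 copies are near identical, so a probe cannot be tied to 1 of them with certainty.

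SNORD13, the U13 RNA that acts on the small ribosomal subunit RNA, had log2 signals of 9.82, 10.16 and 10.02 with MELK siRNA and 10.58 and 10.57 with UBE2C siRNA, against 9.62, 9.41 and 9.31 in controls. The groups did not overlap, and the UBE2C siRNA arrays stood above the MELK siRNA arrays (pooled difference 0.84, adjusted p = 0.000365; MELK minus UBE2C difference -0.58, adjusted p = 0.342). SNORA80E, of the class that guides pseudouridine formation, had 6.82, 6.81 and 6.69 with MELK siRNA and 7.19 and 7.0 with UBE2C siRNA, against 6.17, 6.04 and 5.68 in controls. Its rise of 0.97 (SE 0.16, adjusted p = 0.00183) was the largest of the called genes. SNORD46, of the class that guides ribose methylation, rose by 0.96 (adjusted p = 0.00585), with 0.57 under MELK siRNA and 1.34 under UBE2C siRNA. SNORA23 rose by 0.92 (adjusted p = 0.0261), was above background on 1 of the 3 control arrays, and lost its call in 4 of the 8 fits that left out an array.

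Among protein-coding genes the increases covered several functions. IER3IP1, a small endoplasmic reticulum membrane protein, had log2 signals of 9.59, 9.40 and 9.38 with MELK siRNA and 9.27 and 9.45 with UBE2C siRNA, against 8.56, 8.56 and 8.68 in controls. Its 1.75-fold increase had no overlap between groups (difference 0.81, SE 0.1, adjusted p = 0.00044). SUB1, a transcriptional coactivator, had 9.96, 9.84 and 10.03 with MELK siRNA and 9.86 and 9.93 with UBE2C siRNA, against 9.26, 9.17 and 9.26 in controls, and rose 1.61-fold (adjusted p = 0.000593). PTGES3, the p23 co-chaperone of Hsp90, had 11.42, 11.55 and 11.60 with MELK siRNA and 11.62 and 11.60 with UBE2C siRNA, against 11.08, 10.87 and 11.03 in controls. It rose 1.49-fold (adjusted p = 0.000792), and its groups did not overlap.

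CAPZA1, a subunit of the protein that caps growing actin filament ends, had log2 signals of 8.39, 8.80 and 9.03 with MELK siRNA and 8.54 and 8.77 with UBE2C siRNA, against 8.01, 7.78 and 7.74 in controls. It rose 1.81-fold without overlap (adjusted p = 0.0017). GCH1, which catalyses the first step of tetrahydrobiopterin synthesis, rose 1.78-fold (adjusted p = 0.00566), and GOLT1B, a Golgi vesicle transport protein, rose 1.76-fold (adjusted p = 0.00275). BCAS2, a component of the spliceosome, also rose 1.78-fold (adjusted p = 0.00657), and its other probe gave a difference of 0.51. ETV3, an ETS family repressor, and RANGRF, which binds the Ran GTPase, were above background on no control array, so only bounds apply: they were at least 1.69-fold (ETV3, adjusted p = 0.0369) and at least 1.78-fold (RANGRF, adjusted p = 0.0356) higher. Each such bound compares the mean of the knockdown arrays with a detection level on the control arrays: the dimmest detected probe of that array, or the gene's own probe where that was brighter. Both genes passed the detection filter only through knockdown arrays, and RANGRF was above background on 1 of the 2 UBE2C siRNA arrays compared. ETV3 lost its call in 6 of the 8 fits that left out an array, and RANGRF in 4.

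**Figure D2:**
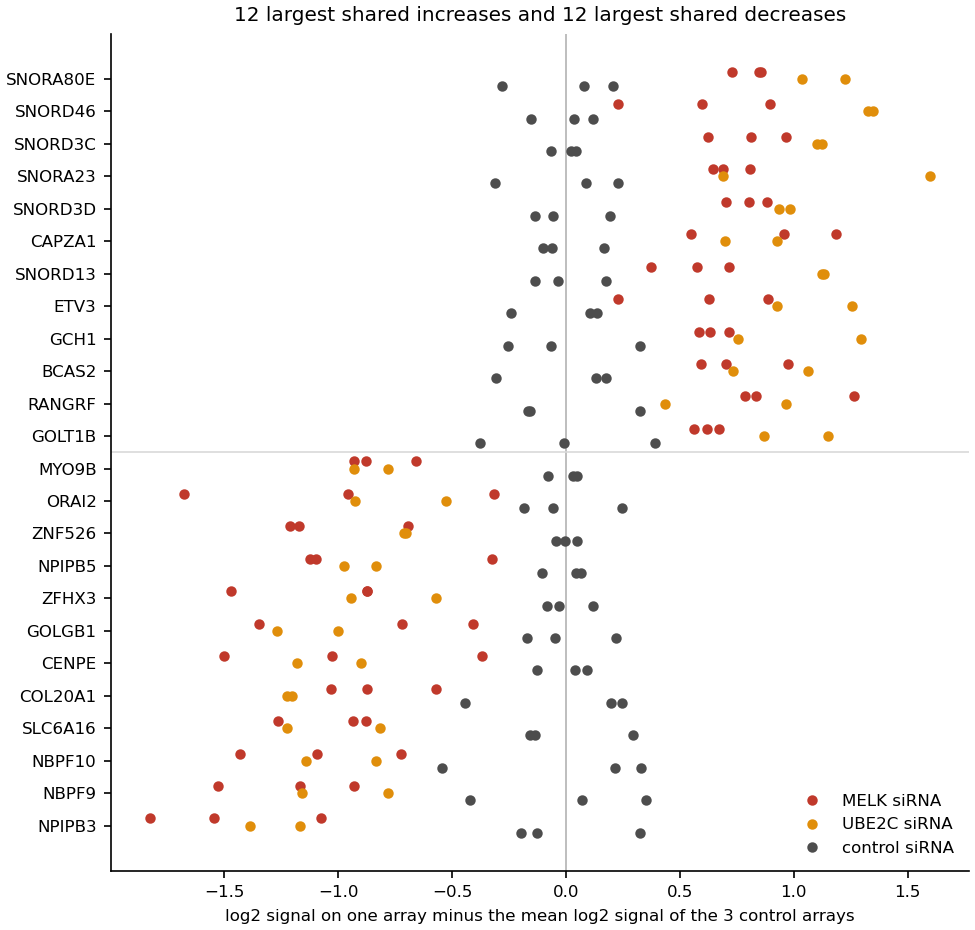
Log2 signal on each array minus the mean log2 signal of the 3 control arrays (horizontal axis) for the 12 genes with the largest shared increase (upper rows) and the 12 with the largest shared decrease (lower rows). Points are single arrays, with MELK siRNA above UBE2C siRNA above control siRNA in each row. In every row the 5 knockdown arrays lie on 1 side of the 3 control arrays, which is how the rows were chosen, and the mean differences run from 0.97 (SNORA80E) to -1.38 (NPIPB3).

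The largest decreases were in gene families of recent segmental duplication. NPIPB3, of the nuclear pore complex interacting protein family, had log2 signals of 8.30, 7.83 and 7.55 with MELK siRNA and 7.99 and 8.21 with UBE2C siRNA, against 9.18, 9.25 and 9.70 in controls. The groups did not overlap, and the knockdown arrays averaged 38.5% of the control signal (difference -1.38, SE 0.16, adjusted p = 0.000607). NBPF9, of the neuroblastoma breakpoint family, fell by 1.09 (adjusted p = 0.00602) and NPIPB5 fell by 0.88 (adjusted p = 0.00566). NBPF10 fell by 1.04 on its brightest probe (adjusted p = 0.0261), while its other 2 probes gave -0.04 and -0.05, and the call was lost when its probes were averaged. Members of these families are near-identical copies, so which copy a probe reports is uncertain. As a list, 5 of 10 measured NBPF and NPIP genes were called lower and 0 higher, with a median of -0.67 beside -0.01 over all genes. The median was -0.39 in the authors' values, and -0.39 with 3 called lower when probes were averaged. The list's median, relative to its mean over the arrays, was -0.21, -0.19 and -0.39 with MELK siRNA and -0.39 and -0.13 with UBE2C siRNA, against 0.23, 0.59 and 0.59 in controls, with no overlap.

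Several large cytoskeletal and Golgi proteins followed. CENPE, the kinesin that moves chromosomes at the kinetochore, had log2 signals of 7.47, 6.81 and 6.34 with MELK siRNA and 6.66 and 6.94 with UBE2C siRNA, against 7.71, 7.93 and 7.88 in controls. It fell by 1.01 (SE 0.2, adjusted p = 0.00623), its other probe gave -0.93, and MELK siRNA replicate 1 lay nearest to the controls. GOLGB1, or giantin, a tethering protein of the Golgi, had 7.59, 7.28 and 6.65 with MELK siRNA and 6.73 and 7.0 with UBE2C siRNA, against 7.83, 8.22 and 7.95 in controls (difference -0.98, adjusted p = 0.00424). Here too MELK siRNA replicate 1 was the highest knockdown array, without reaching the controls. MYO9B, an unconventional myosin, had 7.36, 7.14 and 7.09 with MELK siRNA and 7.24 and 7.09 with UBE2C siRNA, against 7.94, 8.05 and 8.07 in controls. It fell by 0.84 (SE 0.12, adjusted p = 0.00135), with nearly equal values under MELK siRNA (-0.82) and UBE2C siRNA (-0.85).

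Transcription factors and RNA-processing genes were also among the decreases. INTS1, the largest subunit of the Integrator complex that cleaves nascent small nuclear RNAs, had log2 signals of 9.13, 9.19 and 9.24 with MELK siRNA and 9.35 and 9.33 with UBE2C siRNA, against 9.88, 10.01 and 9.86 in controls. It fell by 0.65 (SE 0.08, adjusted p = 0.000704) with no overlap. TFAP2A, the AP-2 alpha factor, fell by 0.70 (adjusted p = 0.000704), and its dimmer probe gave -0.17 with an SE of 0.17. ZFHX3, a homeobox factor, fell by 0.91 (adjusted p = 0.0017), and ZNF526, a zinc finger protein, fell by 0.87 (adjusted p = 0.00742).

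Some decreases were of dim genes or fragile. SLC6A16, an orphan member of a transporter family, was above background on no knockdown array and its signal was lower by at least 1.88-fold (adjusted p = 0.0166). COL20A1, a collagen chain, fell by 1.02 (adjusted p = 0.0173) and was above background on 1 of the 5 knockdown arrays. ORAI2, a calcium channel subunit, fell by 0.86 (adjusted p = 0.0425) and lost its call in 7 of the 8 fits that left out an array.

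Gene lists were then described by their counts, with 4.74% of all genes called higher and 6.13% lower as the background. Of 114 measured small nucleolar and Cajal body RNAs, 11 were called higher (9.65%) and 0 lower, with a median of 0.20. The count was 7 without MELK siRNA replicate 2, UBE2C siRNA replicate 2 or control siRNA replicate 2, and the median was 0.08 in the authors' values. The 76 mitochondrial ribosome genes had 12 higher (15.8%) and 0 lower, with a median of 0.10. Leaving out 1 array gave 3 (without UBE2C siRNA replicate 2) to 14 higher and 0 to 2 lower, and scaling each array to 1 median gave a median of 0.19. MRPL50 rose by 0.48 (adjusted p = 0.00448), MRPL47 by 0.40 (adjusted p = 0.024), MRPL15 by 0.38 (adjusted p = 0.0182) and MRPS28 by 0.37 (adjusted p = 0.00637). All 4 encode proteins of the ribosome that translates mitochondrial DNA transcripts.

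The 71 respiratory chain and ATP synthase genes had 9 higher (12.7%) and 0 lower, with a median of 0.11. Leaving out 1 array gave 3 (without UBE2C siRNA replicate 2 or control siRNA replicate 2) to 10 higher and 0 to 1 lower, and scaling each array to 1 median gave a median of 0.19. NDUFB9, of complex I, had log2 signals of 13.20, 13.31 and 13.35 with MELK siRNA and 13.30 and 13.30 with UBE2C siRNA, against 12.88, 12.85 and 12.89 in controls, without overlap (adjusted p = 0.000939). NDUFA9, also of complex I, rose by 0.43 (adjusted p = 0.00198), SDHD of complex II by 0.50 (adjusted p = 0.0121) and ATP5MC3 of the ATP synthase ring by 0.51 (adjusted p = 0.021). The cytosolic ribosome list of 77 genes had 2 higher, RPL36A and RPS27L, and 1 lower, RPL7L1. Its median was 0.04, and -0.02 under another scaling. With each array scaled to 1 median it was 0.09, with 11 higher and 0 lower, where 885 of all genes were higher. That list was taken by a pattern in the gene names, so a member need not be a protein of the ribosome. The median of the respiratory chain list on single arrays, relative to its mean over arrays, was 0.04, 0.05 and 0.05 with MELK siRNA and 0.03 and 0 with UBE2C siRNA, against -0.05, -0.05 and -0.08 in controls.

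In the list of cholesterol synthesis and uptake, 6 of 22 genes were higher (27.3%) and 0 lower, with a median of 0.18. The count was 2 without UBE2C siRNA replicate 2 or control siRNA replicate 2. CYP51A1, the lanosterol demethylase, had log2 signals of 8.68, 8.45 and 8.66 with MELK siRNA and 8.40 and 8.37 with UBE2C siRNA, against 8.02, 7.96 and 7.84 in controls, a 1.46-fold increase with no overlap (adjusted p = 0.00498). IDI1, which isomerizes the isoprenoid unit, rose by 0.54 (adjusted p = 0.00685), SC5D, a late desaturase of the pathway, by 0.48 (adjusted p = 0.0164) and ACAT2 by 0.41 (adjusted p = 0.0211). The ACAT2 call was lost when its probes were averaged, its other probe giving 0.12 with an SE of 0.25. Of 33 proteasome genes 5 were higher (15.2%), among them PSMA2 of the core and PSMD14 of the cap, and 1 was lower, PSMD1 of the cap (difference -0.31, adjusted p = 0.0168). The higher proteasome genes numbered 2 (without UBE2C siRNA replicate 3) to 6 when 1 array was left out.

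Called genes of the matrix, adhesion and lysosome lists were mostly lower. Of 29 extracellular matrix and mesenchyme genes 9 were lower (31%) and 0 higher, with a median of -0.23. Leaving out 1 array gave 4 (without either UBE2C siRNA replicate or control siRNA replicate 2) to 12 lower, and the median was -0.15 in the authors' values and with scaling to 1 median. LAMA5, a laminin chain of basement membranes, had log2 signals of 11.11, 10.79 and 10.90 with MELK siRNA and 10.72 and 11.11 with UBE2C siRNA, against 11.48, 11.53 and 11.62 in controls. All knockdown arrays lay below all control arrays (difference -0.62, adjusted p = 0.00158), and the collagen chains COL5A1 (-0.56), COL6A3 (-0.40) and COL4A1 (-0.36) were called lower too. Of 29 epithelial adhesion genes 4 were lower (13.8%), among them the integrin chains ITGB4 (-0.58) and ITGA3 (-0.46) and the tight junction protein CLDN3 (-0.45), and 1 was higher, the desmosomal cadherin DSC2 (0.40).

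Of 41 lysosome and autophagy genes 7 were lower (17.1%) and 2 higher (4.88%), with a median of -0.06. Leaving out 1 array gave 3 (without control siRNA replicate 2) to 8 lower. CTSB, the protease cathepsin B, had log2 signals of 9.04, 8.83 and 8.54 with MELK siRNA and 8.92 and 9.03 with UBE2C siRNA, against 9.67, 9.74 and 9.50 in controls, and fell by 0.75 without overlap (adjusted p = 0.00145). Its other probe gave -0.61. CTSZ (-0.56), the autophagy lipid transporter ATG2A (-0.48) and CTSA (-0.40) were called lower, and ATP6V1A, a subunit of the proton pump, was called higher (0.34). The golgins, long coiled-coil proteins of the Golgi, had 4 of 11 lower (36.4%) and 0 higher: GOLGB1, GOLGA8B (-0.77), GOLGA4 (-0.72) and GOLGA3 (-0.41). The count was 2 in 5 of the 8 fits that left out an array, and the list's median of -0.24 was -0.09 in the authors' values. GOLGA4 lost its call in 7 of those 8 fits and GOLGA8B in 6.

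Actin and myosin genes moved both ways. Of 30 genes in the list 3 were called higher, led by CAPZA1, and 4 lower. The lower ones included MYO5A (-0.69), a vesicle-carrying myosin, and the non-muscle myosin heavy chains MYH10 (-0.55) and MYH9 (-0.50), against the list's median of 0.01.

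The lists closest to the known work of MELK and UBE2C had calls in both directions. Of 72 mitosis and spindle genes 3 were higher (4.17%) and 4 lower (5.56%), with a median of -0.01. The lower count was 14 without MELK siRNA replicate 1, where 940 of all genes were lower, and 2 without MELK, UBE2C or control siRNA replicate 2. The lower ones included CENPE, the spindle pole protein ASPM (difference -0.63, adjusted p = 0.00566) and the kinetochore protein CENPF (-0.50, adjusted p = 0.0421), and PBK, a mitotic kinase, was higher (0.51, adjusted p = 0.00406). CENPF overlapped the control arrays under MELK siRNA and lost its call in 6 of the 8 fits that left out an array. Of 15 measured genes around the anaphase-promoting complex 1 was called, its subunit ANAPC13 (0.32, adjusted p = 0.0187). Of 55 DNA replication genes 5 were higher (9.09%) and 4 lower (7.27%), and 0 higher and 2 lower without UBE2C siRNA replicate 2. The primase subunit PRIM2 was higher (0.75), and the clamp loader subunit RFC1 (-0.48), the DNA methyltransferase DNMT1 (-0.45) and UHRF1, which recruits DNMT1 (-0.42), were lower. Other probes gave -0.18 (SE 0.15) for RFC1 and -0.12 (SE 0.28) for UHRF1. With probes averaged the list had 4 higher and 1 lower. Of 28 recombination and Fanconi genes 1 was higher, RMI1, and 2 were lower, SLX4 and TOP3A. Of 28 p53 targets and apoptosis regulators 2 were called, both higher: RRM2B (0.61), a ribonucleotide reductase subunit, and TIGAR (0.40), which limits glycolysis. The other probe of RRM2B gave 0.14 (SE 0.28), and with probes averaged 1 member of the list was called higher.

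Lists related to the response to transfected RNA were read next. Of 44 interferon-stimulated and RNA-sensing genes 2 were higher (4.55%), IFIT5 and PSMB8, and 4 were lower (9.09%), with a median of -0.15. EIF2AK2, the double-stranded RNA-dependent kinase PKR, had log2 signals of 10.12, 10.10 and 9.83 with MELK siRNA and 9.73 and 10.13 with UBE2C siRNA, against 10.31, 10.32 and 10.45 in controls, without overlap (difference -0.39, adjusted p = 0.0229). IFIT1 (-0.43) and the signalling factor IRF9 (-0.42) were also called lower, but the knockdown arrays of both overlapped the control arrays. IFIT1 lost its call in 5 of the 8 fits that left out an array and IRF9 in 6.

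In the RNA interference list 2 of 15 genes were higher and 2 lower, with a median of -0.16. AGO2, the Argonaute that cleaves the targets of siRNAs, had log2 signals of 9.93, 9.63 and 9.71 with MELK siRNA and 9.64 and 9.85 with UBE2C siRNA, against 10.26, 10.12 and 10.46 in controls. It fell by 0.53 without overlap (adjusted p = 0.00441). DROSHA, the nuclease that starts microRNA maturation, was lower (-0.29), and TSN (0.79) and PRKRA (0.37), a Dicer partner, were higher. TSN rose by 1.07 under MELK siRNA and by 0.51 under UBE2C siRNA (limma adjusted p = 0.281), where it overlapped the control arrays. Its pooled call was lost in 5 of the 8 fits that left out an array. Of 24 NF-kB and cytokine genes 3 were lower (12.5%), namely NFKB1, the coactivator BCL3 and the inhibitor TNIP1, and 0 were higher.

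Of 33 immediate-early and ERK feedback genes 5 were lower (15.2%), among them SRF, JUND and FOSL1, and 1 was higher, the ERK phosphatase DUSP6 (0.36). Of 33 hypoxia and glycolysis genes 3 were lower, namely CA12, EPAS1 and NDRG1, and 0 were higher. The other probe of CA12 gave -0.09 (SE 0.16), against -0.48 for the probe used. Of 27 unfolded protein and ATF4 genes 3 were lower, CEBPB, PPP1R15A and SLC7A5, and 1 was higher, the serine synthesis enzyme PSAT1. Of the 6 measured genes of other cell types 0 were called in either direction, and 1 had an unadjusted p under 0.05. Single omitted arrays gave 0 to 5 lower interferon genes and 0 to 6 lower immediate-early genes. Scaling each array to 1 median gave 1 higher and 0 lower immediate-early genes, and 2 higher and 0 lower unfolded protein and ATF4 genes. Over all genes that scaling gave 885 higher and 619 lower. Among the named list members, TIGAR, DROSHA, IFIT5, PPP1R15A and GOLGA4 each lost the call in 7 of the 8 fits leaving out an array. TOP3A lost it in all 8.

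**Figure D3:**
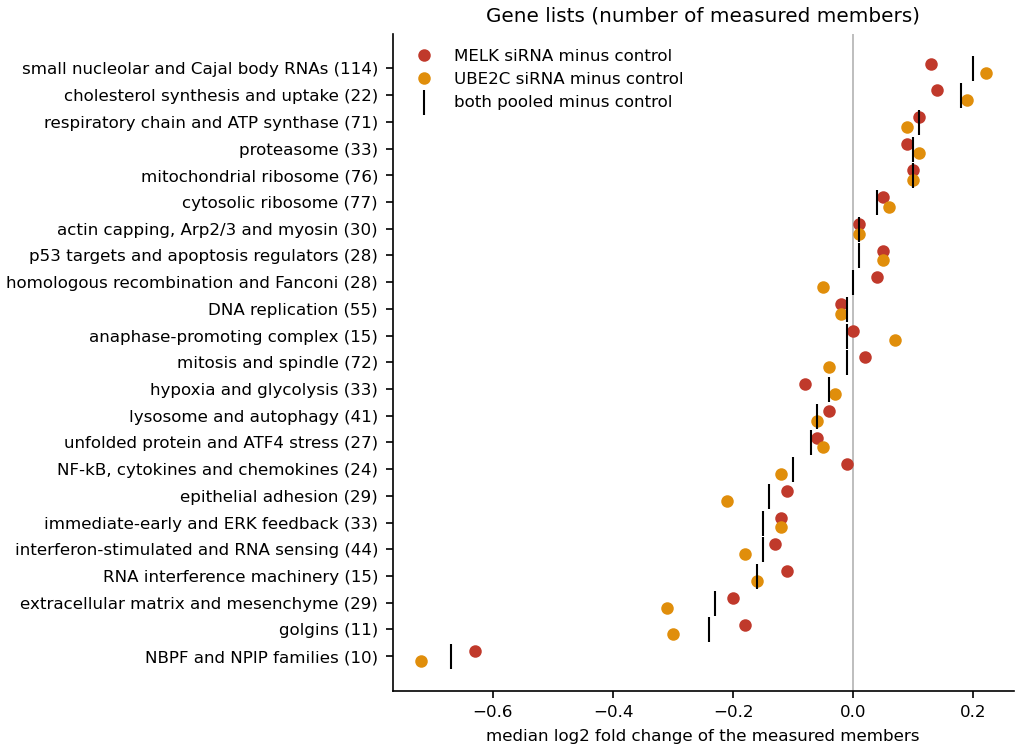
Median log2 difference from control (horizontal axis) over the measured members of each gene list, the number of members in brackets. Red points are MELK siRNA, orange points UBE2C siRNA and black ticks both pooled, all against the same control arrays. The medians run from 0.20 pooled for small nucleolar and Cajal body RNAs to -0.67 for the NBPF and NPIP families, and the pooled medians of the other lists lie within 0.25 of 0.

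The called genes were unevenly placed in the genome. Of 781 genes tested on chromosome 19, 2 were higher (0.256%) and 91 lower (11.7%), with a median of -0.12. Over all genes the shares were 4.74% and 6.13%. Chromosome 20 had 6 of 324 genes higher (1.85%) and 34 lower (10.5%), with a median of -0.10. Chromosome 16 had 12 of 513 higher (2.34%) and 53 lower (10.3%), with -0.06. Chromosome 22 had 4 of 279 higher (1.43%) and 23 lower (8.24%), with -0.06. At the other end chromosome 18 had 11 of 166 higher (6.63%) and 3 lower (1.81%), with a median of 0.09. Chromosome 4 had 28 of 394 higher (7.11%) and 15 lower (3.81%), with 0.05. The 2 higher genes of chromosome 19 were zinc finger genes. Its 145 zinc finger genes had a median of -0.05. Its 636 other genes had one of -0.13, with 0 higher and 83 lower (13.1%).

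The pattern was small beside the spread of single arrays. The median over chromosome 19, relative to each gene's mean, was 0.03, -0.06 and -0.04 with MELK siRNA and -0.06 and -0.09 with UBE2C siRNA, against 0.12, 0.11 and -0.03 in controls. Control replicate 3 lay within the knockdown values, so the groups overlapped, and the left-out UBE2C siRNA replicate 1 was at 0.33, where all genes were at 0.31 on that array. Across the 22 autosomes the median difference went with the number of RefSeq protein-coding genes per megabase (Pearson r = -0.78, Spearman coefficient = -0.83), and r was -0.83 without chromosomes 17 and 19. The chromosomes share the same 8 arrays, so this is a description of these arrays.

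**Figure D4:**
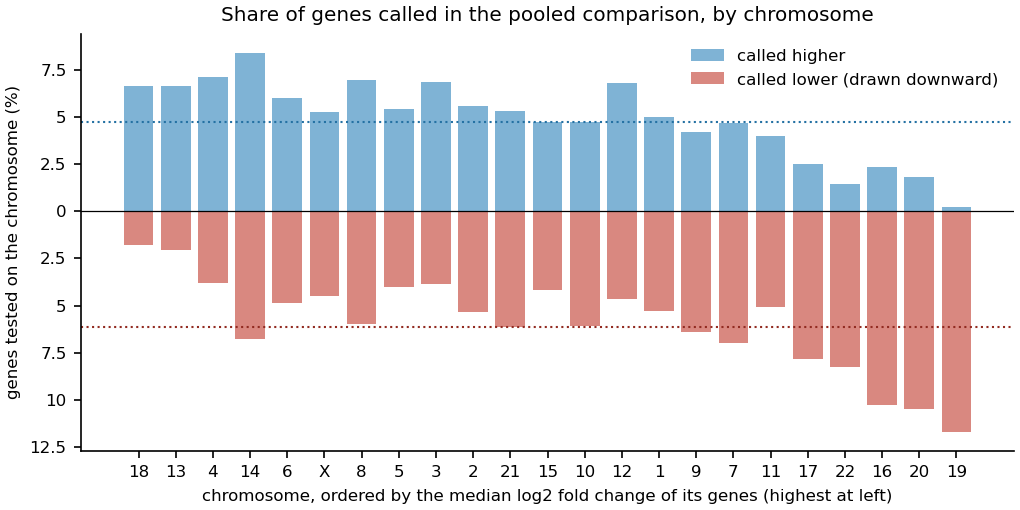
Percentage of the genes tested on each chromosome that were called higher (upward bars) or lower (downward bars) in both knockdowns pooled against control. Chromosomes run along the horizontal axis from the highest to the lowest median difference, and dotted lines mark the shares over all genes, 4.74% and 6.13%. Chromosome 19, at the right, has 0.256% higher and 11.7% lower.

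Promoter base composition went with the direction as well. RefSeq promoter sequences of assembly GRCh38.p14, from 250 bases before to 50 after the start, matched 9234 of the genes tested and had a median G+C content of 65%. In the quintile of genes with the lowest promoter G+C 5.15% were higher and 3.76% lower, and in the quintile with the highest 2.28% were higher and 10.6% lower. The median difference was 0.02 in the lowest and -0.08 in the highest quintile. The following promoters are those of genes described above, the 2 called higher and the 2 called lower genes of smallest adjusted p among the named genes with a single RefSeq promoter entry that could be printed here (duplicated families and targets aside). None of them falls in the lowest quintile, which ends at 56.3% G+C. The CG dinucleotides, the sites of DNA methylation, are in capitals. CG reads the same on both strands, and 99.5% of the matched promoters hold at least 1, with a median of 26.
PTGES3: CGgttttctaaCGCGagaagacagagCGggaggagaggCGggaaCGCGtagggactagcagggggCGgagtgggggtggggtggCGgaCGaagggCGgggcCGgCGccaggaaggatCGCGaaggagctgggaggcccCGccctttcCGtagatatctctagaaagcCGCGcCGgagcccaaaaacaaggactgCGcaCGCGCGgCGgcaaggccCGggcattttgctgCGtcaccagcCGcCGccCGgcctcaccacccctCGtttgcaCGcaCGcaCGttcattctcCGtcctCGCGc
CAPZA1: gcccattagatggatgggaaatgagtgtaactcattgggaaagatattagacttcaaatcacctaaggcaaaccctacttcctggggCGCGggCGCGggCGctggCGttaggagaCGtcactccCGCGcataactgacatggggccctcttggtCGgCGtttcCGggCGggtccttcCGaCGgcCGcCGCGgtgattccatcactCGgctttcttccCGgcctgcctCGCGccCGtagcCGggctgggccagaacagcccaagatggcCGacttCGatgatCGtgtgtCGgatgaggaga
INTS1: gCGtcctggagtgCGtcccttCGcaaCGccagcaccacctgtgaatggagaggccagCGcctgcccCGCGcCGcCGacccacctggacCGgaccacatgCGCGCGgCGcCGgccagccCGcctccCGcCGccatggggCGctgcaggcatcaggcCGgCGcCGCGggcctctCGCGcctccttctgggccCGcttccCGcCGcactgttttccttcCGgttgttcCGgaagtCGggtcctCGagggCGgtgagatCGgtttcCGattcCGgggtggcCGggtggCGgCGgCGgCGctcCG
MYO9B: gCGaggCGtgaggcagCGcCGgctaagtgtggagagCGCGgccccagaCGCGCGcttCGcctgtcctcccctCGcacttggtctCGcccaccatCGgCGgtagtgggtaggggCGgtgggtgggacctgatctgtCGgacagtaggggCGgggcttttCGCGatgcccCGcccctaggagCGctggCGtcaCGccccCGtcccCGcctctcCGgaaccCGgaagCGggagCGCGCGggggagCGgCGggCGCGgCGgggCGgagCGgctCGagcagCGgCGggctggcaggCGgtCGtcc

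Each is written 5′ to 3′ on the strand of its gene. The PTGES3 promoter (chr12:56688235-56688534, minus strand) was 68% G+C with 37 CG, and the CAPZA1 promoter (chr1:112619582-112619881, plus strand) 60.7% with 28. The INTS1 promoter (chr7:1504340-1504639, minus strand) was 74.3% G+C with 42 CG, and the MYO9B promoter (chr19:17075527-17075826, plus strand) 75.7% with 43. TFAP2A, called lower with a smaller adjusted p than MYO9B, is not printed. The promoter matched to it was 61.7% G+C with 18 CG. Over all called genes the median promoter G+C was 63.7% for the higher and 69% for the lower genes, beside 65% for genes not called.

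The composition contrast separated the arrays. The median of the highest G+C quintile minus that of the lowest was 0.01, -0.06 and -0.05 with MELK siRNA and -0.06 and -0.05 with UBE2C siRNA, against 0.08, 0.06 and 0.05 in controls. All 5 knockdown arrays lay below all 3 control arrays, and the left-out UBE2C siRNA replicate 1, at -0.03, did as well. This measure was chosen after its values were seen and was not tested. Gene length went along with it in part: in the quintile of genes with the longest span 3.06% were higher and 8.63% lower, and that quintile had a median promoter G+C of 67%, against 63.7% in the quintile with the shortest span.

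**Figure D5:**
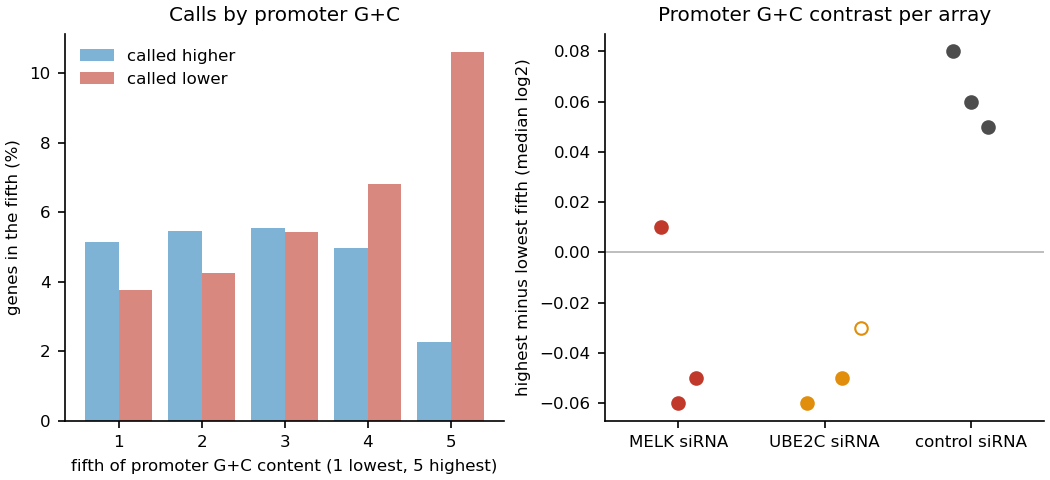
Left, percentage of genes called higher and lower in both knockdowns pooled against control, by quintile of promoter G+C content (labelled 1 for the lowest to 5 for the highest). Right, median log2 signal (relative to each gene's mean) of the highest G+C quintile minus that of the lowest on each array, with the open point for UBE2C siRNA replicate 1, which was left out. The share called lower is 3.76% in the lowest and 10.6% in the highest quintile, and the 5 knockdown arrays, from -0.06 to 0.01, lie below the control arrays, from 0.05 to 0.08.

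The share of calls differed with brightness. In the dimmest quintile of genes by mean signal 0.35% were higher and 0.831% lower, in the fourth quintile 8.1% and 10.5%, and in the brightest quintile 7.52% and 10.1%. The median difference was -0.02 in the dimmest and 0.01 in the brightest quintile, a gap of 0.03 that became 0.13 when each array was scaled to 1 median. Fewer calls among dim genes do not show that dim genes changed less.

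Probes that were not used for the calls gave a second reading of the same RNA. Of 239 other probes of called higher genes, 212 (88.7%) were also higher, and of 270 other probes of called lower genes, 221 (81.9%) were also lower, beside 66.3% in the same direction among genes not called. For other probes with a mean log2 signal of 8 or more these shares were 95.2%, 90.5% and 73.6%. These probes read the same hybridizations, so they bear on the probe and not on the replication. Among 4445 detected probes without a single listed gene, 315 (7.09%) had all knockdown arrays above all control arrays and 222 (4.99%) all below. Both shares were under those of the genes tested, 9.11% above and 8.88% below.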

How the data were processed

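Per the labels, total RNA of PC3 cells was amplified, biotin-labelled and run on Illumina bead arrays. Signals were deposited as linear intensities per probe, without background subtraction or scaling. Per the file headers, each intensity has a detection p-value, and this p was small on either side of the background level. The authors also deposited log2 values that share their quantiles across arrays. The submitters' processing notes name lumi, and its version and settings are not given in the sources used here.

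Intensities were background-corrected and normalized over the 9 arrays with neqc (offset 16) in limma 3.58.1 under R 4.3.3. A probe was kept when at least 3 of the 9 arrays had it above background with a detection p under 0.01, and each gene kept its brightest probe with 1 listed gene. UBE2C siRNA replicate 1 thus counted in the filter. With the 8 other arrays normalized and filtered alone, 11272 genes were tested and 1241 called. The small nucleolar and Cajal body list then had 103 members, against 114. Group means were fitted to 8 arrays with lmFit and eBayes (trend, robust), and p-values were adjusted by Benjamini-Hochberg over 11428 genes, with calls at 0.05. The pooled contrast was the average of the MELK and UBE2C siRNA means minus the control mean, so each knockdown had equal weight. The script was tested on simulated data.

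The arrays, gene lists and tests were chosen with earlier results of these data known, so lists are described by counts and medians without a test. Genes named were the targets, the 12 largest increases and decreases among called genes whose groups did not overlap, the 5 smallest p-values in each direction, and up to 4 called members of each list with 1 in the other direction. Alternatives changed the normalization, filter, probe choice, variance prior, pooling, array weights, left-out arrays and replicate block. No slide or scan date was used, so batches could not be examined. The number of arrays limits the precision.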

Additional observations from a re-analysis of the deposited data

Results flagged for a closer look

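The direct comparison of MELK siRNA with UBE2C siRNA differed for the targets: MELK by -0.90 and UBE2C by 1.25 on the log2 scale. UBE2C siRNA replicate 1, the array outside the comparison, had a median of 0.65 above the control mean over the genes called higher in the other knockdown arrays.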

How the results depend on the processing

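The arrays are few, and the counts depend on them more than the directions do. Leaving out 1 array at a time gave 405 to 1552 pooled calls, 148 to 612 of them higher and 257 to 940 lower. It gave 78 to 692 calls for MELK siRNA, 2 to 755 for UBE2C siRNA and 1 to 3 for their difference. The genes carried by both numbered 393 to 1436, and 9 to 11 of the 24 gene lists had a median above 0, against 10. The MELK target difference was -1.13 to -1.06 and the UBE2C one -1.37 to -1.24, chromosome 19 lay -0.15 to -0.08 from all genes, the promoter G+C gap was -0.12 to -0.09 and the brightest minus dimmest quintile 0.01 to 0.04. Scaling to 1 median gave 885 higher genes and a signal gap of 0.13, against 0.03. With no filter there were 682 pooled calls (270 higher, 412 lower), 282 for MELK siRNA, 211 for UBE2C siRNA, 635 carried by both and a signal gap of 0. With the detection p alone there were 676 (297 higher, 379 lower), 175, 4 and 664. Without trend and robustness there were 198 (88 higher, 110 lower), 1 for MELK siRNA, 1 for UBE2C siRNA, 1 for the difference and 197 carried by both. Averaging probes left 1 difference call and gave a UBE2C target difference of -0.72. Array weights gave 977, 1022 and 4 calls for MELK siRNA, UBE2C siRNA and the difference. Adding UBE2C siRNA replicate 1 left 1 pooled call, 0 higher and 1 lower, 0 for MELK siRNA, 1 for UBE2C siRNA, 1 for the difference, 0 carried by both and a signal gap of -0.01, and the MELK target difference of -1.09 had limma adjusted p = 0.577. With that array and weights UBE2C siRNA had 1434 calls and the difference 8. The promoter G+C gap was -0.06 in the authors' values and -0.11 for genes detected on all 8 arrays, against -0.10. The cause of these changes was not tested. Same-numbered arrays correlated at -0.06 to 0.18 in their deviations from the group means, and differently numbered arrays at -0.24 to 0.23. With means of so few arrays this cannot show whether the replicate numbers pair the arrays. With the replicate block there were 1175 pooled calls and 337 for UBE2C siRNA. The authors' values, without background subtraction, gave 1254 pooled calls.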
